A study of Mus musculus with 12 samples.

Results

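The genes described here are the kininogens Kng1 and Kng2 and 8 further genes of the mouse Adipoq neighbourhood on chromosome 16, namely Hrg, Fetub, Ahsg, Masp1, Eif4a2, Rfc4, St6gal1 and Dnajb11. They were picked by symbol because they lie beside Adipoq, so that a transgene built from that stretch of the genome could carry some of them. The choice was made with earlier results of these data known. All 10 are among the 24197 genes of the deposited count table. Of the 10, 8 were abundant enough to be tested, and Hrg and Ahsg fell below the low-count filter.

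The 12 RNA-seq libraries come from brown adipose tissue, a fat that burns fuel for heat, taken from mice 8 to 10 weeks old. Every group carried 2 floxed alleles of Ebf2, a transcription factor gene of brown fat. Control mice were Adipoq-Cre- and mutant mice Adipoq-Cre+, with Adipoq-Cre expressing a recombinase in white and brown adipocytes alike. Each genotype was sampled from room temperature housing and from 1 week of cold at 4 degrees, with 3 libraries in each of the 4 groups and 25835650 to 37927038 counts per library. The Adipoq-Cre line and the genomic segment it contains are not named in the labels. Ebf2 itself was not lower at room temperature, at 47.8 ± 16.05 CPM (SD, n = 3; CPM are counts scaled to a common library total) in controls and 49.8 ± 13.9 in mutants. It averaged 45.4 ± 6.04 CPM in cold controls and 25.8 ± 3.73 in cold mutants, a difference that did not pass the test (edgeR log2 fold change -0.82 ± 0.25 SE, adjusted p = 0.153). "Mutant" and "control" below therefore mean the libraries that carry these labels, on which each genotype direction depends.

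Kininogens are secreted plasma proteins made mainly by the liver. Plasma kallikrein, and tissue kallikreins, cut them to release bradykinin, a short peptide that widens vessels and makes them leaky through the bradykinin receptors. The rest of the protein holds cystatin domains, which inhibit cysteine proteases, and Hrg, Fetub and Ahsg encode liver-made proteins of the same cystatin superfamily that sit beside the kininogens in the genome. The other neighbours do unrelated work inside the cell or in complement.

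The mouse has 2 kininogen genes, and their sequences are close enough to bear on how reads are shared between them. In the GENCODE M21 transcripts (GRCm38), the longest open reading frame was 1986 bases for Kng1 and 1935 bases for Kng2, and 92.9% of 1932 aligned bases were identical. The longest identical run was 116 bases. The stretch shown starts at the first base of the codons for bradykinin, which is base 1138 of the Kng1 reading frame and base 1141 of that of Kng2, counted from the A of the start codon. It shows how the bases that tell the genes apart are spaced, and the capitals mark the bases that differ between the pair.
Kng1: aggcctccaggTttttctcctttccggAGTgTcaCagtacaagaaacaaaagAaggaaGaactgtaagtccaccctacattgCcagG
Kng2: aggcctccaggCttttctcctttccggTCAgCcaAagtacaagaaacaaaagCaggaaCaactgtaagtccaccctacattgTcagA
Over whole transcripts, 17.2% of the 50-base stretches of Kng1 and 19.4% of those of Kng2 occurred in the other gene. For 100-base stretches the shares were 4.93% and 5.29%. The labels give neither the read length nor how multiply matching reads were treated, so Kng1 is reported below also as a share of both genes' counts, and the pair also as a sum.

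Kng2 was the abundant kininogen of this tissue, lower in mutants at room temperature and at similar levels in both genotypes after the cold. In room temperature controls it was at 43.4, 106 and 55.9 CPM in libraries 1, 2 and 3, scaled by TMM library sizes. In room temperature mutants it was at 13.6, 8.79 and 5.95 CPM. Every mutant library lay below every control library. The edgeR log2 fold change was -2.85 ± 0.36 (SE, n = 3 against 3), a 7.23-fold lower level, with adjusted p = 0.00148. Kng2 was the 1 of 8 tested genes called in this comparison, while 6.24% of all 15265 genes tested were called, 3.92% higher and 2.32% lower.

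After the cold Kng2 stood at 198, 161 and 170 CPM in controls and at 164, 159 and 116 CPM in mutants. The ranges overlapped, and the difference of -0.27 ± 0.34 was not called (edgeR adjusted p = 0.735). Cold mutants were 15.4-fold above room temperature mutants, a log2 fold change of 3.95 ± 0.38 (edgeR adjusted p = 0.000126). In controls the same comparison gave 1.37 ± 0.34 (edgeR adjusted p = 0.0374). Both rises separated every cold library from every room temperature library. Averaged over the temperatures, Kng2 was lower in mutants, with a log2 fold change of -1.56 ± 0.24 (edgeR adjusted p = 0.00355), again the 1 gene of the 8 called, against 8.10% of all genes tested (5.18% higher and 2.93% lower).

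The temperature dependence of the genotype difference was itself tested. For Kng2 the difference in the cold exceeded that at room temperature by 2.58 ± 0.48 on the log2 scale, with edgeR adjusted p = 0.0492. In this comparison 0.478% of all genes tested were called (0.295% positive and 0.183% negative), and Kng2 was the 1 called of the 8. The call was close to the threshold and ended when any of 10 of the 12 libraries was left out. It held only without control room temperature library 1 (adjusted p = 0.0177) or mutant room temperature library 1 (0.0430). With the replicate number as a block the adjusted p was 0.0582.

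The rise of Kng2 with cold in controls was also close to the threshold. It ended without any of 8 libraries, namely control room temperature 1 or 3, any of the 3 cold controls, mutant room temperature 2, or cold mutant 1 or 2, with adjusted p of up to 0.133. Of the 3 room temperature controls, the Kng2 level was highest in library 2, which held 90.5 CPM of 15 skeletal muscle marker genes together. Libraries 1 and 3 held 26006 and 18107 CPM of these markers. With the 4 most muscle-rich libraries removed, room temperature control library 2, the highest of its group in Kng2, is the 1 room temperature control left. The fit then assumes that it varies like the other groups. On that basis the rise in controls was 0.77 (adjusted p = 0.293) and the room temperature genotype difference -3.24, so neither value bears on the spread among controls. The rise in mutants, with 2 room temperature and 3 cold libraries left, was 3.70 (adjusted p = 0.00111).

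Summed CPM of 8 brown adipocyte markers overlapped between the genotypes at room temperature, at 19447 to 20044 in controls and 18630 to 25731 in mutants. By group mean the largest part was Fabp4, at 7517 CPM in controls and 10099 in mutants, so the sum says little of the other markers. Cidea, also of the 8, was lower in mutants without overlap but was not called. It was at 1720, 3481 and 2649 CPM in room temperature controls and 1636, 1502 and 1257 in mutants. Ucp1, which uncouples mitochondria for heat, was lower in mutants at room temperature, with a log2 fold change of -1.77 ± 0.39 (edgeR adjusted p = 0.0199). It was the 1 of the 8 markers called lower there, and 3 were called higher (Plin1, Lipe and Cidec, of the lipid droplet). Over all genes tested 2.32% were called lower and 3.92% higher. The median log2 fold change of the 8 was 0.51 beside -0.04 over all genes tested. In bulk tissue, fewer cells of a type and less RNA per cell cannot be told apart.

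**Figure D1:**
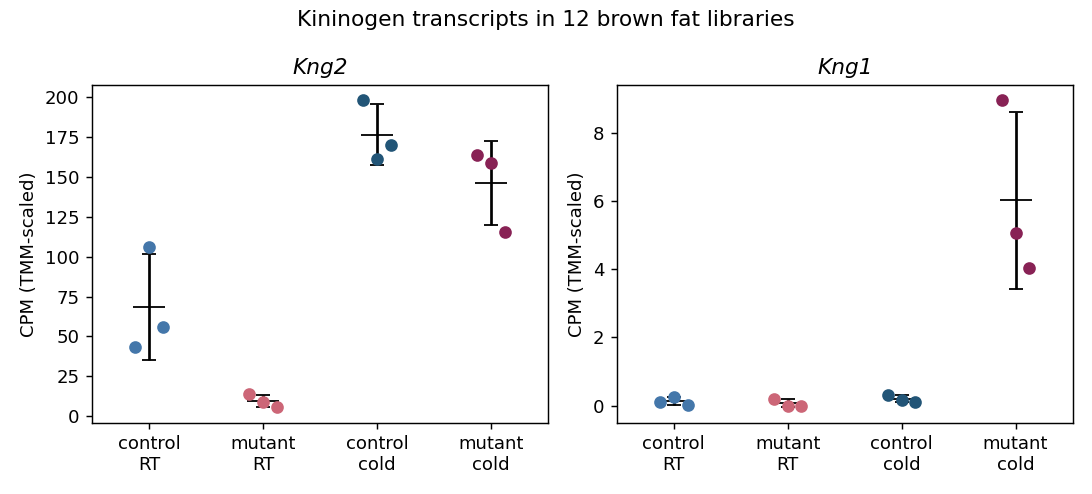
Kng2 (left) and Kng1 (right) in CPM scaled by TMM library sizes, for control and mutant libraries at room temperature (RT) and in the cold. Each point is 1 library, the long bar is the mean and the whiskers are the SD of 3 libraries. The axes differ. Kng2 is lowest in the room temperature mutants, at 5.95 to 13.6 CPM, and Kng1 stands above 4 CPM in the 3 cold mutants alone.

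Kng1 showed another pattern, being near 0 in 9 libraries and present in all 3 cold mutants. Its raw counts were 4, 7 and 1 in room temperature controls, 8, 0 and 0 in room temperature mutants, and 9, 5 and 3 in cold controls. In cold mutants they were 275, 140 and 157. The lowest cold mutant count was thus far above the highest count elsewhere, which was 9. As CPM, cold mutants had 8.96, 5.07 and 4.04, against 0.310, 0.165 and 0.114 in cold controls.

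The genotype difference for Kng1 in the cold was 4.90 ± 0.88 on the log2 scale, a 29.9-fold higher level (edgeR adjusted p = 0.0266). It was the 1 called of the 8 genes tested, and 1.12% of all genes tested were called, 0.727% higher and 0.393% lower. The call ended without cold control library 1, 2 or 3 (adjusted p = 0.0852, 0.130 and 0.150) or cold mutant library 1 (0.101), although the log2 fold change was at least 4.51 with any library left out. Without the 4 muscle-rich libraries it was 4.65 (adjusted p = 0.161). DESeq2 gave an adjusted p of 1.90e-09 for the same comparison.

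At room temperature the difference for Kng1 was -0.72 ± 1.04 (edgeR adjusted p = 0.775), from counts too low to show a difference of modest size. A total of 3 counts, used as the floor of detection, corresponds to 0.0791 to 0.116 CPM. Cold raised Kng1 in mutants by 6.24 ± 0.96 on the log2 scale (edgeR adjusted p = 0.00124). In controls the cold difference was 0.62 ± 0.95 (edgeR adjusted p = 0.733). The interaction was 5.62 ± 1.36 but did not pass in edgeR (adjusted p = 0.109), whereas DESeq2 gave 0.000191. Averaged over the temperatures, the Kng1 difference of 2.09 ± 0.70 was not called (edgeR adjusted p = 0.0918), DESeq2 gave 0.00462, and it was -0.06 without room temperature mutant library 1. That library holds all 8 Kng1 counts of its group, so without it the fitted value depends on the prior count.

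Kng1 made up 5.18% of all kininogen counts in cold mutant library 1 (95% Wilson interval 4.61 to 5.81), 3.10% in library 2 (2.63 to 3.64) and 3.38% in library 3 (2.89 to 3.94). In the cold controls, with 4471 to 5764 kininogen counts each, the shares were 0.156% (0.0822 to 0.297), 0.102% (0.0435 to 0.238) and 0.0671% (0.0228 to 0.197). The intervals of the cold mutants lay wholly above those of the cold controls at nearly equal Kng2 counts. Room temperature controls ranged from 0.0545% to 0.252%. In room temperature mutants, with 190 to 542 kininogen counts, the share was 1.48% (0.750 to 2.89) in library 1 and 0 in libraries 2 and 3, with Wilson upper bounds of 1.55% and 1.98%. These intervals are binomial within each library and leave out the spread between libraries. Duplicate reads were not resolved by molecular identifiers, so counts may not be independent and the intervals may be too narrow.

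**Figure D2:**
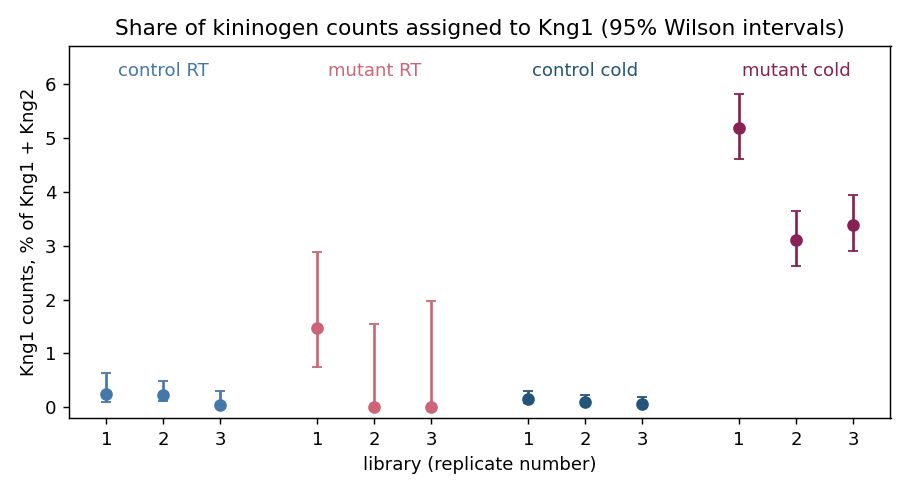
Kng1 counts as a percentage of Kng1 and Kng2 counts together (vertical axis), for each of the 12 libraries by group and replicate number. Points are the shares and whiskers their 95% Wilson intervals. The cold mutants lie at 3.10% to 5.18%, and the intervals are widest in the room temperature mutants, where Kng2 itself was low.

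The sum of both kininogens followed Kng2. On the log2 scale it was -2.85 ± 0.37 between genotypes at room temperature (edgeR adjusted p = 0.00158) and -0.22 ± 0.34 in the cold (0.799). The cold rise was 1.37 ± 0.35 in controls (0.0393) and 4.00 ± 0.38 in mutants (0.000126). The interaction of 2.63 ± 0.49 was called (0.0492). It was not called with RLE size factors (0.0536), with the replicate block (0.0550) or without any of 10 of the 12 libraries, control and mutant room temperature libraries 1 being the exceptions.

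The Kng2 promoter in RefSeq (GRCm38.p6, chr16:23029052-23029351, minus strand) covers 250 bases before to 50 bases after the gene's start, and is shown because Kng2 was called in 5 of the 6 comparisons. The capitals mark its 1 match, on either strand, to the C/EBP-type motif TTGCNNAA.
Kng2 promoter: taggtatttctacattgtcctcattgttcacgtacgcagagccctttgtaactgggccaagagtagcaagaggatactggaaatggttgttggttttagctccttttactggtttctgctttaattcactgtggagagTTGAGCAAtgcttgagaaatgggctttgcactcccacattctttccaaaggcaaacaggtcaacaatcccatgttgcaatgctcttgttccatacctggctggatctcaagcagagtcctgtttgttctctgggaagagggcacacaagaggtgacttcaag
Of all 32851 RefSeq promoters of this length, 10.8% held that motif. The window held no match to the EBF-type core CCCNNGGG, which occurred in 13.7% of promoters, or to the CRE half-site TGACG, in 20.8%, on either strand. These are matches of letters only. Of the 10 genes, 8 had a promoter in this table, Kng1 and Masp1 being the others.

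Fetub, Ahsg and Hrg, which lie beyond Kng2 on the side away from Adipoq, were at or near 0. Fetub encodes fetuin-B, a liver-made protease inhibitor of the egg coat protease. Its raw counts were 22, 10 and 10 in room temperature controls and 10, 12 and 0 in mutants. After the cold they were 26, 16 and 28 in controls and 8, 10 and 6 in mutants. Cold mutants lay below cold controls without overlap, at 0.259 ± 0.104 against 0.830 ± 0.276 CPM (SD, n = 3). The log2 fold change of -1.68 ± 0.81 did not pass the test (edgeR adjusted p = 0.355), nor did that at room temperature of -0.90 ± 0.82 (0.616). Averaged over the temperatures it was -1.29 ± 0.58 (0.202).

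Ahsg encodes fetuin-A, a carrier of calcium phosphate in plasma, and had 8 counts over all 12 libraries with at most 2 in any 1. Hrg, histidine-rich glycoprotein of plasma, had 1 count in all, in cold control library 3. Neither exceeded the floor of 3 counts in any library, so a genotype difference was not detectable at this depth. An exact two-sided permutation test of CPM, with labels permuted within temperature (400 arrangements), gave unadjusted p = 0.2 for Ahsg and 1 for Hrg. With 1 count in all, every arrangement gave Hrg a difference of the same size, so its p was fixed in advance. Ahsg was above 0 in 4 libraries, too few to reach the p of 0.005 that 400 arrangements allow. Neither value bears on a genotype difference.

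These genes and the kininogens are typical of hepatocytes, so liver transcripts were examined beside them. Albumin (Alb) was at 0.603 CPM at most and the fibrinogen chain gene Fga had 0 counts in all 12 libraries. Fgb, another fibrinogen chain gene, had 80 counts (2.06 CPM) in cold mutant library 3, 2 counts in room temperature control library 1 and 0 elsewhere. The sum of 18 hepatocyte markers was 137 to 342 CPM in room temperature controls, 615 to 979 in mutants, 111 to 271 in cold controls and 142 to 963 in cold mutants. Most of it was Cyp2e1, a cytochrome P450 gene, which ranged from 81.0 to 956 CPM. The sum was higher in room temperature mutants, where Cyp2e1 averaged 751 CPM against 238 in controls, so it says little of the other markers. Of the apolipoprotein genes listed, Apoa2 averaged 1.29 CPM in room temperature controls and 0.571 in mutants, and Apoa1 0.185 and 0.349. The median log2 fold change of the tested markers at room temperature was 0.15, beside -0.04 over all genes tested. Of the 18 markers 8 were tested, and 1 was called with cold in mutants, where 17.4% of all genes tested were called. It was Hpx, the haem carrier haemopexin. Hpx had 36, 35 and 48 counts in cold mutants, where Kng1 was also high, and 3 to 17 in the other libraries. Its rise was 3.40 ± 0.52 on the log2 scale (edgeR adjusted p = 0.00119), and its genotype difference in the cold, 1.60 ± 0.47, was not called (0.134). Between genotypes 0 of the 8 were called at either temperature, and averaged over them Vtn, vitronectin, was lower (-0.51 ± 0.14, 0.0453). The part of liver-type transcripts in the Kng1 result was not tested. The markers at 0 in all libraries of a group numbered 3 in room temperature controls (Fga, Ambp and Tat), 6 in room temperature mutants (Ttr, Fga, Fgb, Fgg, F2 and Cps1), 5 in cold controls (Fga, Fgb, Fgg, F2 and Ambp) and 7 in cold mutants (Apoh, Ttr, Fga, F2, Ambp, Cps1 and Tat).

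Masp1, which encodes serine proteases that start the lectin pathway of complement, was low and uneven. Its raw counts were 65, 0 and 30 in room temperature controls, 14, 19 and 35 in room temperature mutants, 10, 7 and 6 in cold controls, and 27, 4 and 122 in cold mutants. The groups overlapped in both genotype comparisons. The log2 fold changes were -0.35 ± 1.12 at room temperature (edgeR adjusted p = 0.904) and 2.37 ± 1.20 in the cold (0.377). The highest value, 3.14 CPM, came from cold mutant library 3, which held 234 CPM of 5 epithelial markers against at most 21.6 in any other library. Without it the cold difference was 0.94 (adjusted p = 0.792).

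Eif4a2, an RNA helicase of the cap-binding complex eIF4F, had the highest mean of the 10 per exon length over the 12 libraries. In cold controls Kng2 was higher on that scale, at 64.6 against 54.5 CPM per kilobase. In room temperature libraries it was at 329, 216 and 341 CPM in controls and at 484, 364 and 333 in mutants. In the cold it was at 286, 302 and 286 CPM in controls and at 398, 421 and 234 in mutants. The genotypes overlapped at both temperatures. Log2 fold changes were 0.42 ± 0.24 at room temperature (edgeR adjusted p = 0.376), 0.27 ± 0.24 in the cold (0.622) and 0.34 ± 0.17 averaged (0.246).

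Rfc4, a subunit of the clamp loader that places the sliding clamp on DNA, was highest in the cold mutants. It was at 4.83, 6.68 and 5.54 CPM in room temperature controls and 5.75, 6.13 and 7.49 in room temperature mutants. In the cold it was at 7.85, 5.27 and 6.02 CPM in controls and at 12.2, 11.3 and 8.70 in mutants. The cold mutants lay above every library of the other groups. Their difference from cold controls, 0.75 ± 0.21 on the log2 scale, was not called by edgeR (adjusted p = 0.128), and DESeq2 gave an adjusted p of 0.0284. At room temperature the genotype difference was 0.18 ± 0.21 (edgeR adjusted p = 0.712), and averaged over temperatures it was 0.47 ± 0.15 (edgeR 0.0826, DESeq2 0.0346).

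With cold, Rfc4 rose in mutants by 0.73 ± 0.21 on the log2 scale (edgeR adjusted p = 0.0347), whereas in controls the difference was 0.17 ± 0.21 (0.670). The interaction was 0.56 ± 0.30 and was not called (0.495). The call in mutants ended with the replicate block (0.0546), with only the 2 groups compared (0.0639), and without the muscle-rich libraries (0.0885). It also ended without control room temperature 3, mutant room temperature 1 or 2, cold control 3 or cold mutant 1 or 2 (0.0506 to 0.136). Rfc4 and Eif4a2 are adjacent, and 9.14% of the 50-base stretches of Rfc4 transcripts also occurred in Eif4a2 transcripts, so some reads of the pair may not be separable.

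St6gal1, the sialyltransferase that caps N-glycans with alpha-2,6 sialic acid, differed with temperature and showed no called difference with genotype. It was at 14.8, 21.5 and 16.1 CPM in room temperature controls and 17.0, 14.2 and 14.9 in mutants. In the cold it was at 22.6, 22.3 and 29.0 CPM in controls and 26.5, 23.1 and 31.7 in mutants. Cold libraries lay above room temperature libraries in both genotypes without overlap. The rise was called in mutants, at 0.82 ± 0.18 on the log2 scale (edgeR adjusted p = 0.00872). In controls it was 0.50 ± 0.18 and was not called (0.115). Genotype differences were -0.18 ± 0.18 at room temperature (0.644) and 0.14 ± 0.18 in the cold (0.745).

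Dnajb11, a co-chaperone of the endoplasmic reticulum, varied little, between 45.6 and 57.4 CPM over the 12 libraries. It was at 46.0, 53.3 and 51.0 CPM in room temperature controls and 49.0, 56.8 and 57.4 in mutants, and at 46.1, 45.6 and 49.2 CPM in cold controls and 54.0, 47.0 and 54.3 in cold mutants. The genotypes overlapped at both temperatures. Log2 fold changes between genotypes were 0.12 ± 0.11 at room temperature (edgeR adjusted p = 0.629) and 0.14 ± 0.11 in the cold (0.578), and 0.13 ± 0.08 averaged over them (0.353).

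**Figure D3:**
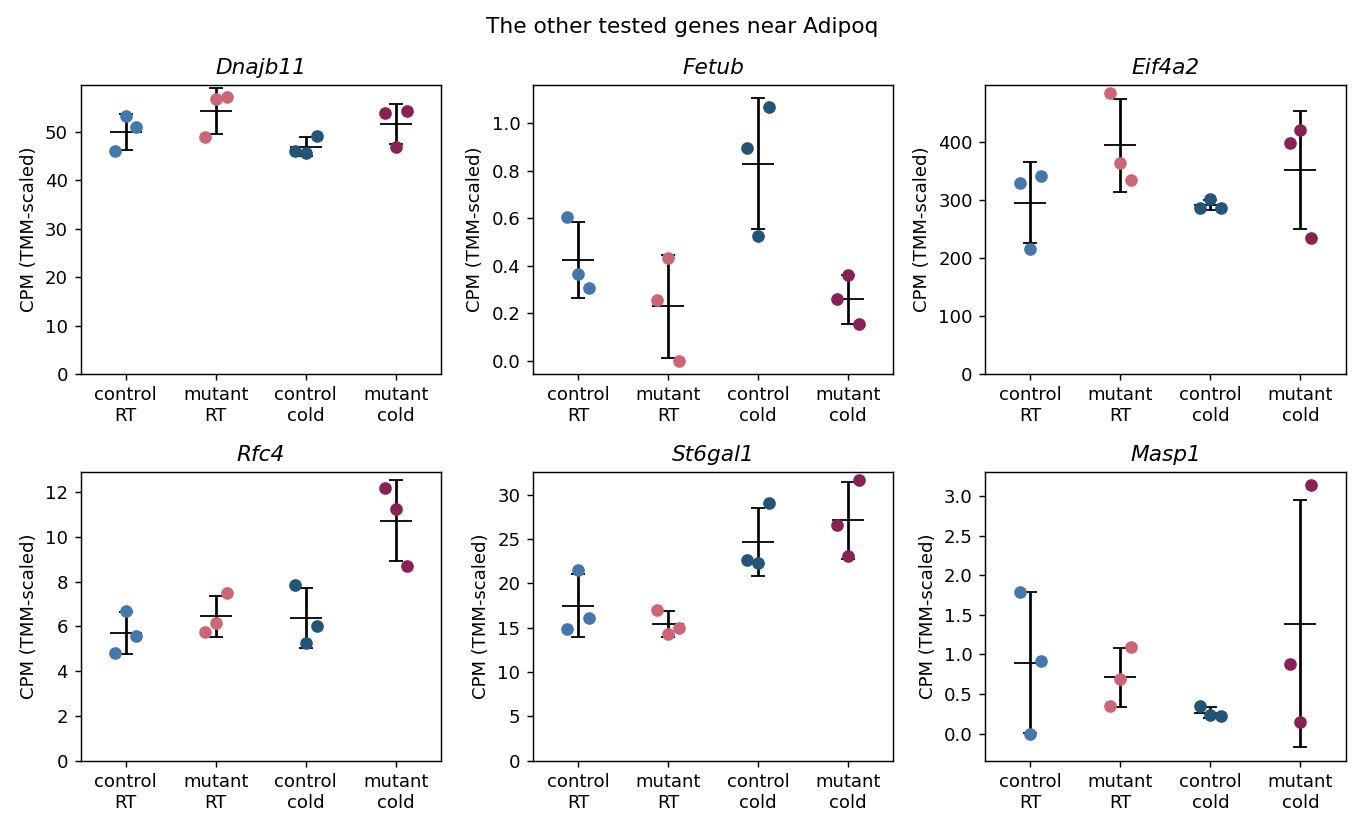
Dnajb11, Fetub, Eif4a2, Rfc4, St6gal1 and Masp1 in CPM scaled by TMM library sizes, in control and mutant libraries at room temperature (RT) and in the cold. Points are libraries, long bars means and whiskers SDs of 3 libraries. Rfc4 is highest in the 3 cold mutants, at 8.70 to 12.2 CPM, and St6gal1 is higher in the cold in both genotypes.

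With cold, 4 of the 8 tested genes rose in mutants (Kng1, Kng2, St6gal1 and Rfc4) and none fell, against 17.4% of all genes tested called in either direction, 10.0% higher and 7.42% lower. In controls 1 of the 8 was called, Kng2, against 6.62% of all genes tested, 4.31% higher and 2.31% lower. The 2 comparisons use separate libraries. The genotype and temperature comparisons share libraries, so their values are set side by side without an overlap being read from them. No gene of the 8 was called higher in mutants at both temperatures, and Rfc4, Eif4a2 and Dnajb11 had estimates above 0 at both, none of them called. Of all genes tested, 3.92% were called higher at room temperature and 0.727% in the cold. So few are called in the cold that the absence of such a gene among 8 says little of these genes. Nothing in the labels ties the replicates to separate animals, and the p-values may reflect technical spread among these samples.

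**Figure D4:**
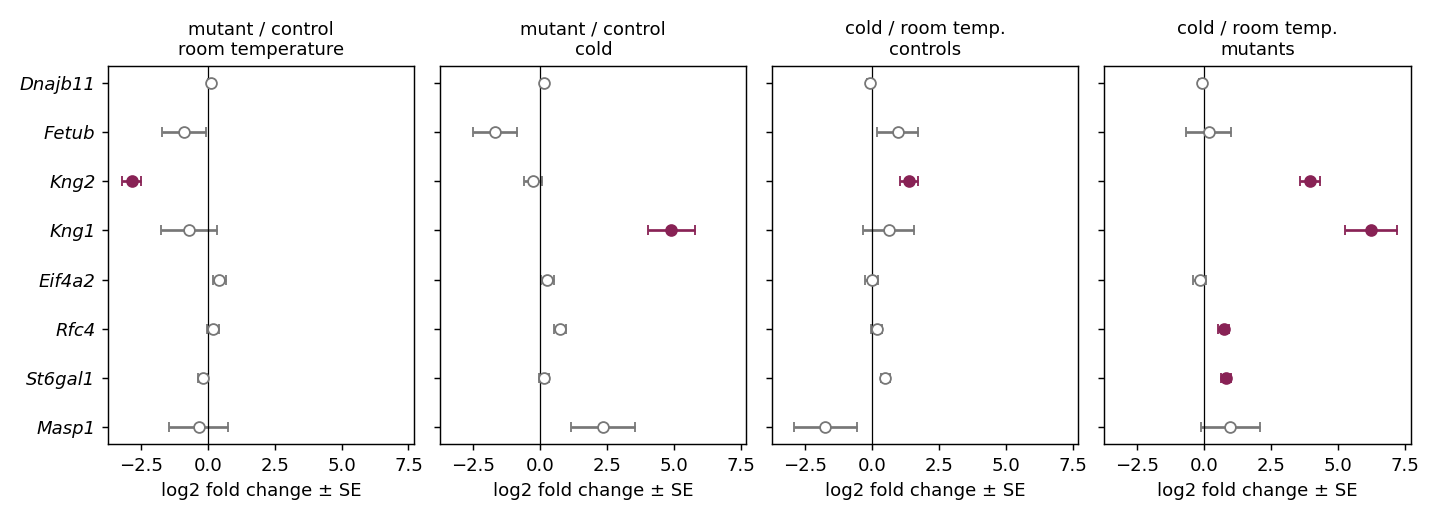
Log2 fold changes with SE (horizontal axis) of the 8 tested genes, in gene order, for mutant against control at room temperature and in the cold, and for cold against room temperature in controls and in mutants. Filled points were called by edgeR at adjusted p under 0.05. Kng2 is filled in 3 panels, Kng1 in the cold genotype comparison and in the cold response of mutants, and Rfc4 and St6gal1 in the cold response of mutants.

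Per length of annotated exon, expressed as CPM per kilobase and averaged over the 12 libraries, the order was Eif4a2 62.3, Kng2 36.6, Dnajb11 15.7, Rfc4 4.77, St6gal1 4.30, Kng1 0.494, Fetub 0.222, Masp1 0.0831, Ahsg 0.00884 and Hrg 0.00159. Adipoq, the adiponectin gene between Rfc4 and St6gal1, was at 868 on this scale. In room temperature mutants Kng2 fell to 3.45 ± 1.41 and in cold controls it was 64.6 ± 7.01 (SD, n = 3). Over the 12 libraries the ranges of neighbouring genes in this order overlapped, except between Dnajb11 and Rfc4 and between St6gal1 and Kng1.

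Adipoq itself, whose promoter drives the Cre, was read beside these genes. Its mean was 1290 ± 78.8 CPM in room temperature controls, 1950 ± 43.8 in mutants, 769 ± 144 in cold controls and 787 ± 96.3 in cold mutants. Mutants lay above controls at room temperature without overlap, at a log2 fold change of 0.60 ± 0.16 that narrowly missed the threshold (edgeR adjusted p = 0.0512). With cold it fell by 0.75 ± 0.16 in controls (edgeR adjusted p = 0.0211) and by 1.31 ± 0.16 in mutants (0.000429).

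A wider look took the 20 protein-coding genes on each side of Adipoq in RefSeq gene order. The members there run, outward from Adipoq on one side, Rfc4, Eif4a2, Kng1, Kng2, Hrg, Fetub, Ahsg and Dnajb11, and on the other side St6gal1 and Masp1, with Rtp1 between them at 0 counts in every library. Of these 40 neighbours 28 were tested, 20 of them outside the 10 genes described above. At room temperature 1 of the 20 was higher in mutants, Ccdc50, a ubiquitin-binding protein, at 0.52 ± 0.11 on the log2 scale (edgeR adjusted p = 0.0172). Another, Crygs, a lens crystallin gene, was lower, with 494, 1414 and 498 counts in controls and 0, 2 and 2 in mutants (edgeR adjusted p = 0.00036). Over all genes tested 3.92% were called higher and 2.32% lower there, so these counts of calls are near the background. In cold mutants Crygs had 500, 386 and 347 counts. The sum of 13 lens markers, Crygs among them, was 302 to 799 CPM in room temperature controls and 54.8 to 104 in mutants, and its part in this result was not tested.

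After the cold 0 of the 20 were called between genotypes, where 1.12% of all genes tested were called. Averaged over the temperatures, Ccdc50 at 0.38 ± 0.08 (edgeR adjusted p = 0.0130) and Ehhadh, a peroxisomal fatty acid oxidation enzyme, at 0.89 ± 0.24 (0.0420) were higher, and Crygs was lower. Over all genes tested 5.18% were called higher and 2.93% lower in that comparison. The median log2 fold change over the 28 tested neighbours was -0.02 at room temperature and 0.20 in the cold, beside -0.04 and -0.01 over all genes tested. With cold in mutants, 6 of the 20 rose and 1, Ccdc50, fell (-0.54 ± 0.11, edgeR adjusted p = 0.00667), where 10.0% of all genes tested were called higher and 7.42% lower. Their median was 0.38 beside -0.01 over all genes.

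**Figure D5:**
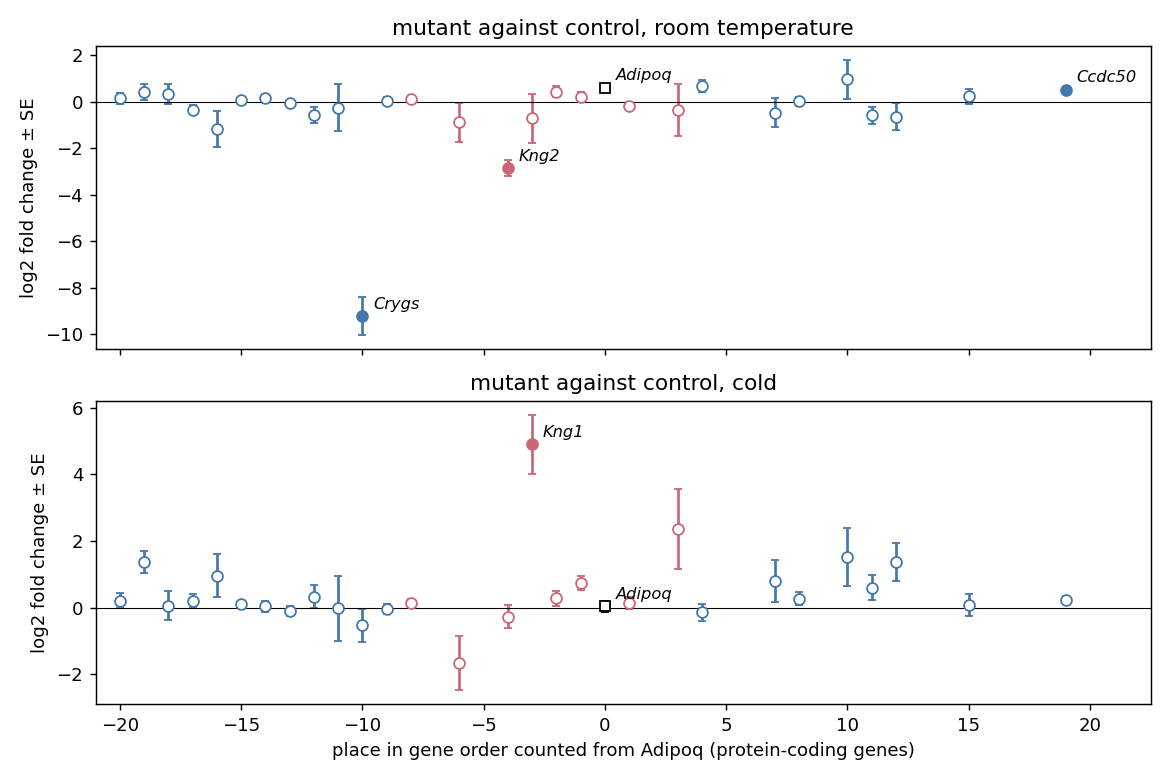
Log2 fold change with SE (vertical axis) between mutants and controls at room temperature (top) and in the cold (bottom) for the 28 tested genes among 20 on each side of Adipoq, placed by gene order (horizontal axis). Red circles are the genes described above, blue circles the other neighbours and the open square Adipoq, and filled circles were called by edgeR. Kng2, Crygs and Ccdc50 are filled at room temperature and Kng1 is filled in the cold, with uncalled genes between them.

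In the rest of the kallikrein-kinin system 1 gene passed a test. Of 20 listed genes of kallikreins, contact factors, receptors and kinin-degrading peptidases, 15 were tested. Between genotypes 1 was called at room temperature, lower, and 0 in the cold, where 6.24% and 1.12% of all genes tested were called, so the count at room temperature is near the background. That gene was Cpn2, the regulatory subunit of carboxypeptidase N, which trims kinins in plasma. Its levels were 31.5, 142 and 77.7 CPM in room temperature controls and 17.9, 14.1 and 15.4 in mutants, and in the cold 61.6, 71.6 and 67.4 in controls and 59.0, 60.8 and 49.2 in mutants. The room temperature mutants lay below every other library, as for Kng2, at a log2 fold change of -2.40 ± 0.41 (edgeR adjusted p = 0.00633). With cold Cpn2 rose in mutants by 1.83 ± 0.40 (0.0104). It was the 1 gene of the 15 called there, where 17.4% of all genes tested were called. In controls 0 of the 15 were called, beside 6.62% of all genes tested.

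The genes of plasma prekallikrein, its activator and the bradykinin receptors were near 0. Tissue kallikreins, which also cut kininogens, are not described one by one here. Klkb1, plasma prekallikrein, had 0 to 4 counts per library, and F12, the contact factor that activates it, had 0 to 2. Bdkrb1, the inducible bradykinin receptor, had 0 to 4 counts and Bdkrb2, the constitutive one, 2 to 16. In the lectin pathway beside Masp1, 7 of 11 genes were tested and 0 were called between genotypes at either temperature. Averaged over temperatures C3, the central complement protein, was higher in mutants at 0.98 ± 0.27 on the log2 scale (edgeR adjusted p = 0.0444), with its highest level in cold mutant library 3.

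Partners of the intracellular genes were read from lists in the same way, beside 5.18% of all genes tested called higher and 2.93% called lower in the averaged genotype comparison. Of 11 genes of the eIF4F system around Eif4a2, 0 were called between genotypes at either temperature, and averaged over them Eif4g3, a scaffold, was higher at 0.54 ± 0.12 and Pdcd4, an inhibitor of the helicase, lower at -0.51 ± 0.14 (edgeR adjusted p = 0.0160 and 0.0403). Of 8 clamp loader genes and the clamp beside Rfc4, 0 were called in any comparison, and the most abundant, Rfc1 and Pcna, overlapped between genotypes at both temperatures. Of 10 tested sialic acid genes beside St6gal1, averaged over temperatures 3 were higher in mutants, among them St3gal6 at 0.55 ± 0.12, and 1 was lower, St3gal5 at -0.97 ± 0.22 (edgeR adjusted p = 0.0194 and 0.0223). Of 16 chaperone genes beside Dnajb11, 1 was higher, Dnajb9 at 0.50 ± 0.09 (0.00505), a share near that of all genes. Of 4 tested cystatins 0 were called between genotypes.

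Kng2 levels across the 12 libraries ran most closely with those of Ldhb (Pearson r = 0.988), Pvrl2 (0.984), 4930506M07Rik (0.982), Gm5512 (0.982) and 1700071M16Rik (0.981) (log2 CPM, prior count 1). For Kng1 the closest were Lyrm9 (0.943), Ift122 (0.938), Lyn (0.930), Mcur1 (0.930) and Prdx6 (0.925). These values describe 12 libraries that share their group differences, and neither list holds another gene of the Adipoq neighbourhood.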

How the data were processed

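The authors deposited raw read counts per gene, 1 column per library, and the submitters' processing notes name STAR, featureCounts and build mm9. The sources used here give no versions, annotation, strand setting or rule for multiply matching reads, so overlapping or near-identical genes may share counts. Per the labels' protocols, total RNA went through a NEB Next Ultra kit. Library totals were 25835650 to 37927038 counts, and a floor of 3 counts is 0.0791 to 0.116 CPM. Replicates within a group differed by a chi-square per degree of freedom of 38.2 to 234, so none is a copy of another library of its group. Libraries of different groups were not compared in this way.

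All 12 libraries were fitted with 1 coefficient per group in edgeR 4.0.16 (R 4.3.3) with filterByExpr, TMM and the robust quasi-likelihood F-test (15265 genes tested, legacy mode). P-values are two-sided, adjusted by Benjamini-Hochberg over all genes tested, and called under 0.05. SEs are those implied by the F statistic. The fit was first tested on simulated data. Members, lists and markers were chosen with earlier results of these data known. Named were all members, Adipoq, Ebf2, Ucp1, neighbours called between genotypes, up to 2 genes per list and direction (by the averaged genotype comparison, or the 2 most abundant), and the 5 genes most like each kininogen. Alb, Fga, Fgb, Apoa1, Apoa2, Cyp2e1, Hpx, Vtn, Cidea, Fabp4, Plin1, Lipe, Cidec, Klkb1, F12, Bdkrb1, Bdkrb2 and Rtp1 were named after their values were seen.

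Sequences are from GENCODE M21 transcripts (GRCm38) and RefSeq promoters (GRCm38.p6). No mm9 coordinates are given. Gene order is from RefSeq (GRCm38.p6). Alternatives were RLE size factors, DESeq2 1.42.0, other filters, a non-robust fit, only the groups compared, a replicate block, each library left out and, chosen after seeing the data, leaving out 4 muscle-rich libraries (control room temperature 1 and 3, mutant room temperature 3 and cold control 3).

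Groups share replicate numbers. Same-numbered libraries deviated together, with every correlation over 0.1, in 2 comparisons, genotype at room temperature (0.165, 0.719 and 0.488) and cold in controls (0.142, 0.647 and 0.456). This was not so for genotype in the cold (-0.0306, 0.206 and 0.491) or cold in mutants (0.0272, 0.151 and 0.577). No label ties a number to a litter or day, so the pairing comes from the data alone.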

Additional observations from a re-analysis of the deposited data

Results flagged for a closer look

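The genotype difference of Kng2 in the cold minus that at room temperature was 2.58 on the log2 scale, and the same quantity for Kng1 and Kng2 summed was 2.63. Both are listed because a test of the difference between the temperatures passed its threshold, at an edgeR adjusted p of 0.0492 each. In room temperature controls Kng2 stood at 43.4 to 106 CPM and in mutants at 5.95 to 13.6 CPM, whereas in the cold the genotypes overlapped. Kng1 is not among them in edgeR, at 5.62 with adjusted p = 0.109, although 275, 140 and 157 of its 609 counts lie in the 3 cold mutants.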

How the results depend on the processing

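The called direction of Kng2 between genotypes at room temperature, averaged over the temperatures and with cold in mutants held under every alternative tried, of which the one without the 4 muscle-rich libraries leaves 1 room temperature control, assumed to vary like the other groups. The number of members called between genotypes in the cold was 2 with DESeq2 and 0 without the 4 muscle-rich libraries, against 1. Averaged over the temperatures it was 3 with DESeq2, against 1. For cold in controls it was 0 without the low-count filter, with only the groups compared and without the muscle-rich libraries, against 1. For the interaction it was 2 with DESeq2 and 0 with RLE size factors, no filter, the replicate block, the non-robust fit or no muscle-rich libraries, against 1. The number of all genes called also differed between the alternatives, as given below. The changed member counts are therefore not read as particular to these genes. The summed kininogen interaction was 2.64 with RLE size factors and 2.62 with the replicate block, both past the threshold on the other side (adjusted p = 0.0536 and 0.0550).

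With 1 library left out in turn, the number of members called ranged from 0 to 1 for genotype in the cold and for cold in controls, from 3 to 4 for cold in mutants and from 0 to 2 for the interaction. The summed kininogens then ranged from 1.13 to 1.83 for cold in controls and from 2.16 to 2.997 for the interaction. Signs turned only for uncalled values. Kng1 at room temperature ranged from -5.02 to 0.091, Masp1 there from -0.92 to 0.61, Kng1 averaged from -0.058 to 2.50 and Rfc4 with cold in controls from -0.013 to 0.30. With the replicate block Masp1 at room temperature was 0.10. Without the muscle-rich libraries, room temperature genotype values were -0.17 for Rfc4, 7.03 for Masp1 and -0.0064 for Dnajb11, against that 1 control, and values for cold in controls were -0.10 for Kng1 and -0.024 for Rfc4. The Masp1 value is set by the prior count, since that control has 0 Masp1 counts. The cause of the other changes was not tested.

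Over all genes the number called ranged with the alternative from 129 to 1642 for genotype at room temperature (952 as reported), from 18 to 717 in the cold (171), from 247 to 1993 averaged (1237), from 13 to 1925 for cold in controls (1010), from 1218 to 3630 for cold in mutants (2663) and from 13 to 424 for the interaction (73). The replicate block changed no other member's call than those of Rfc4 with cold in mutants and the Kng2 interaction. Only the groups compared could not be used for the averaged comparison and the interaction. Fetub and Masp1 had no value under the filter of a mean of at least 1 CPM. Counts near 0 limit Kng1 outside the cold mutants, Fetub, Masp1, Ahsg and Hrg.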
